A study of Mus musculus with 8 samples.

Results

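The Notch genes described here were the receptors Notch1, Notch2 and Notch3, the DNA-binding partner Rbpj, and the target genes Hes1, Nrarp and Dtx1, examined in open-chromatin maps of mouse group 2 innate lymphoid cells (ILC2s). Members were the peaks with a summit inside 1 of the 7 gene bodies or within 100 kb of it on mm10. This rule took 1134 peak lines, which merged into 133 of the 60835 regions of the whole series. The maps came from ATAC-seq, in which the Tn5 transposase cuts accessible DNA. The cells were thymic ILC2s of plck-Id1 transgenic C57BL/6 mice, expanded in culture with cytokines and transduced with a MIGR1 retrovirus. The 4 groups were E47-ER cells after 4 h and after 16 h of 4-hydroxytamoxifen, and GFP control cells after 4 h and after 16 h of the same drug; they are called E47 and GFP below. E47 is an E protein, a transcription factor made from Tcf3, and the ER part makes it active when 4-hydroxytamoxifen is given. All groups shared the Id1 transgene, driven by the lck proximal promoter, and Id1 blocks E proteins. All groups also received the drug, so no culture without it was compared.

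Each group had 2 samples, but its peak list was 1 pooled list, so no value below has a replicate error and no difference between groups was tested. Whether those 2 samples came from separate cultures or animals is not stated. In every group the description of replicate 1 names the empty vector, and that of replicate 2 names E47-ER, which goes against the titles and the transduction labels. The titles were followed. If the descriptions were right, each list would pool both vectors. The lists held 49811 merged regions for E47 4 h, 40649 for E47 16 h, 42665 for GFP 4 h and 52846 for GFP 16 h. A longer list gives more regions that the other lists lack, and read depth was not given in the files used here. A region that is not in a list may still be accessible below the calling threshold. The lists carry the label IDR conservative, which names a filter on agreement between replicates, and their lowest score was 540. A list may therefore also lack a region on which its 2 samples disagreed. How far this filter shaped the lists was not tested. In bulk cells, fewer cells with an open site and less opening per cell cannot be told apart.

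The cell type label was checked by regions in or within 1 kb of marker genes. Of 14 ILC2 markers, such as Gata3, Il1rl1 and Il17rb, 14 had a region in each E47 list and 13 in each GFP list. The marker without a region in the GFP lists was Thy1. Of 10 T cell precursor markers, 6 in E47 4 h and 5 in E47 16 h had one, against 5 in GFP 4 h and 6 in GFP 16 h, and Ptcra, Cd8a, Cd8b1 and Cd3g had none in any list. Of the ILC3 markers, Il23r had one in each E47 list and in neither GFP list, Ccr6 had one in every list, and Il22 and Il17a had none. Of the B cell markers, Cd79a, Ebf1 and Pax5 had one in every list and Ms4a1 had none. Of 5 myeloid markers, 3 had one in each list, and Csf1r and Lyz2 had none. Of 4 markers of NK cells and ILC1s, 3 had one in each E47 list and 2 in each GFP list, and 2 of 4 mast cell markers had one in every list. What these marker regions contribute to the values below was not tested, and a region at a gene does not show that the gene is expressed.

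Notch receptors sit on the cell surface, and binding of a Delta-like or Jagged ligand leads gamma-secretase to cut the receptor and free its intracellular domain. That domain enters the nucleus, joins RBPJ on DNA and recruits Mastermind coactivators, which turns on targets such as Hes1, Nrarp and Dtx1. In the thymus Notch1 signals drive early progenitors into the T cell lineage, where E proteins act in the same stages, and Notch signals also take part in ILC2 development.

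The promoter sequences below are shown because open chromatin at the gene starts was called in every list for most members, and Notch3 is shown as the receptor whose start had no region. They are RefSeq windows on GRCm38.p6 (mm10) from 250 bases before to 50 bases after the start, on the coding strand, 5′ to 3′. RefSeq windows matched 6 of the 7 members; Hes1 was not matched. Capitals mark motifs of 6 letters, searched on both strands. One is the RBPJ core TGGGAA, which reads TTCCCA on the other strand. The others are E boxes, the letters that E proteins and related factors bind. Of these, CACGTG was taken as the E box of other classes of related factors. CAGCTG reads the same on both strands, as does CACGTG, and a further E box, CAGGTG, reads CACCTG on the other strand. No marked motif overlaps another. The windows are chr2:25180508-25180807 (plus strand) for Nrarp, chr5:53590096-53590395 (plus strand) for the first of the 2 Rbpj starts, chr2:26503773-26504072 (minus strand) for Notch1 and chr17:32166841-32167140 (minus strand) for Notch3.
Nrarp: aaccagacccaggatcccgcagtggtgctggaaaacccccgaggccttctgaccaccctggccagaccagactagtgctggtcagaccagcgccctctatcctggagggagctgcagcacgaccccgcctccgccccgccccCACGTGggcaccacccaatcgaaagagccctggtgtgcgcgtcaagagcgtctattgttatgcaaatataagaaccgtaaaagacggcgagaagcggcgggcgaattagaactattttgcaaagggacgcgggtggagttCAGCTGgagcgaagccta
Rbpj: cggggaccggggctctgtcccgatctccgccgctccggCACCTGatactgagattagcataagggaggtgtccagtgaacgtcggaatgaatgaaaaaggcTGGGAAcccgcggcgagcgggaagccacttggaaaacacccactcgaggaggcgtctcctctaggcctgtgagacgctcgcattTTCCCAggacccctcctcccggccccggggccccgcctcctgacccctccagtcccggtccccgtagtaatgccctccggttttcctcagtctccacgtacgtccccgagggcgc
Notch1: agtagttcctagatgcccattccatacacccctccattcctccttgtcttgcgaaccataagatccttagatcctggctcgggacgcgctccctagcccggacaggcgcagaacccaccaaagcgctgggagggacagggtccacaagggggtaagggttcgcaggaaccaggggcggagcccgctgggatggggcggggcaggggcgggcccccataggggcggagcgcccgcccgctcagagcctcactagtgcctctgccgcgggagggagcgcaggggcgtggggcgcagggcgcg
Notch3: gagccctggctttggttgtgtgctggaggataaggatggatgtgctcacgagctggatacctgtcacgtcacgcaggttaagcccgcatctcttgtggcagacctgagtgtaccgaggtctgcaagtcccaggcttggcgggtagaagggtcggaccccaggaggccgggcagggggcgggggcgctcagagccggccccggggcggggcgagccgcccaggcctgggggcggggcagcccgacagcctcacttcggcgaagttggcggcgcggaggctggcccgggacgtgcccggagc
The Rbpj window held TGGGAA with its first base at −149 from the start and TTCCCA at −65. It also held the E box CACCTG at −212. The window of the second Rbpj start held TTCCCA at −205 from that start, and the 2 windows overlap. The Nrarp window held the E box CACGTG at −108 from the start, and CAGCTG at 32 after it. None of these letters was found in the Notch1, Notch2, Notch3 or Dtx1 windows. Over 21262 promoter windows of the same length, counting both strands, 24.5% held the RBPJ core, 15.6% CAGCTG, 19.7% CAGGTG and 7.84% CACGTG. The GC content was 68.3% for Notch1, 73.0% for Notch2, 70.0% for Notch3, 64.7% and 67.0% for the 2 Rbpj starts, 60.0% for Nrarp and 59.3% for Dtx1, above the median of 56.3% over all windows. A match describes letters and is not a binding site.

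The member windows held 31 regions for Notch2, 23 for Rbpj, 20 for Nrarp, 19 for Notch1, 16 for Dtx1, 13 for Notch3 and 11 for Hes1, against a median of 10 for all protein-coding genes. Of the 133 regions, 34 lay inside the named gene. The named gene was the nearest protein-coding gene for 70 of them. All 11 Hes1 regions and all 23 Rbpj regions had the member as nearest gene, but 4 of 20 did so for Nrarp and 1 of 16 for Dtx1, whose windows hold 16 and 10 other protein-coding genes. Placement in a window is therefore position, not a link to the member's regulation. E47 4 h held 107 of the regions and E47 16 h 84, against 93 in GFP 4 h and 115 in GFP 16 h. This order is that of the list lengths in the whole series.

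**Figure D1:**
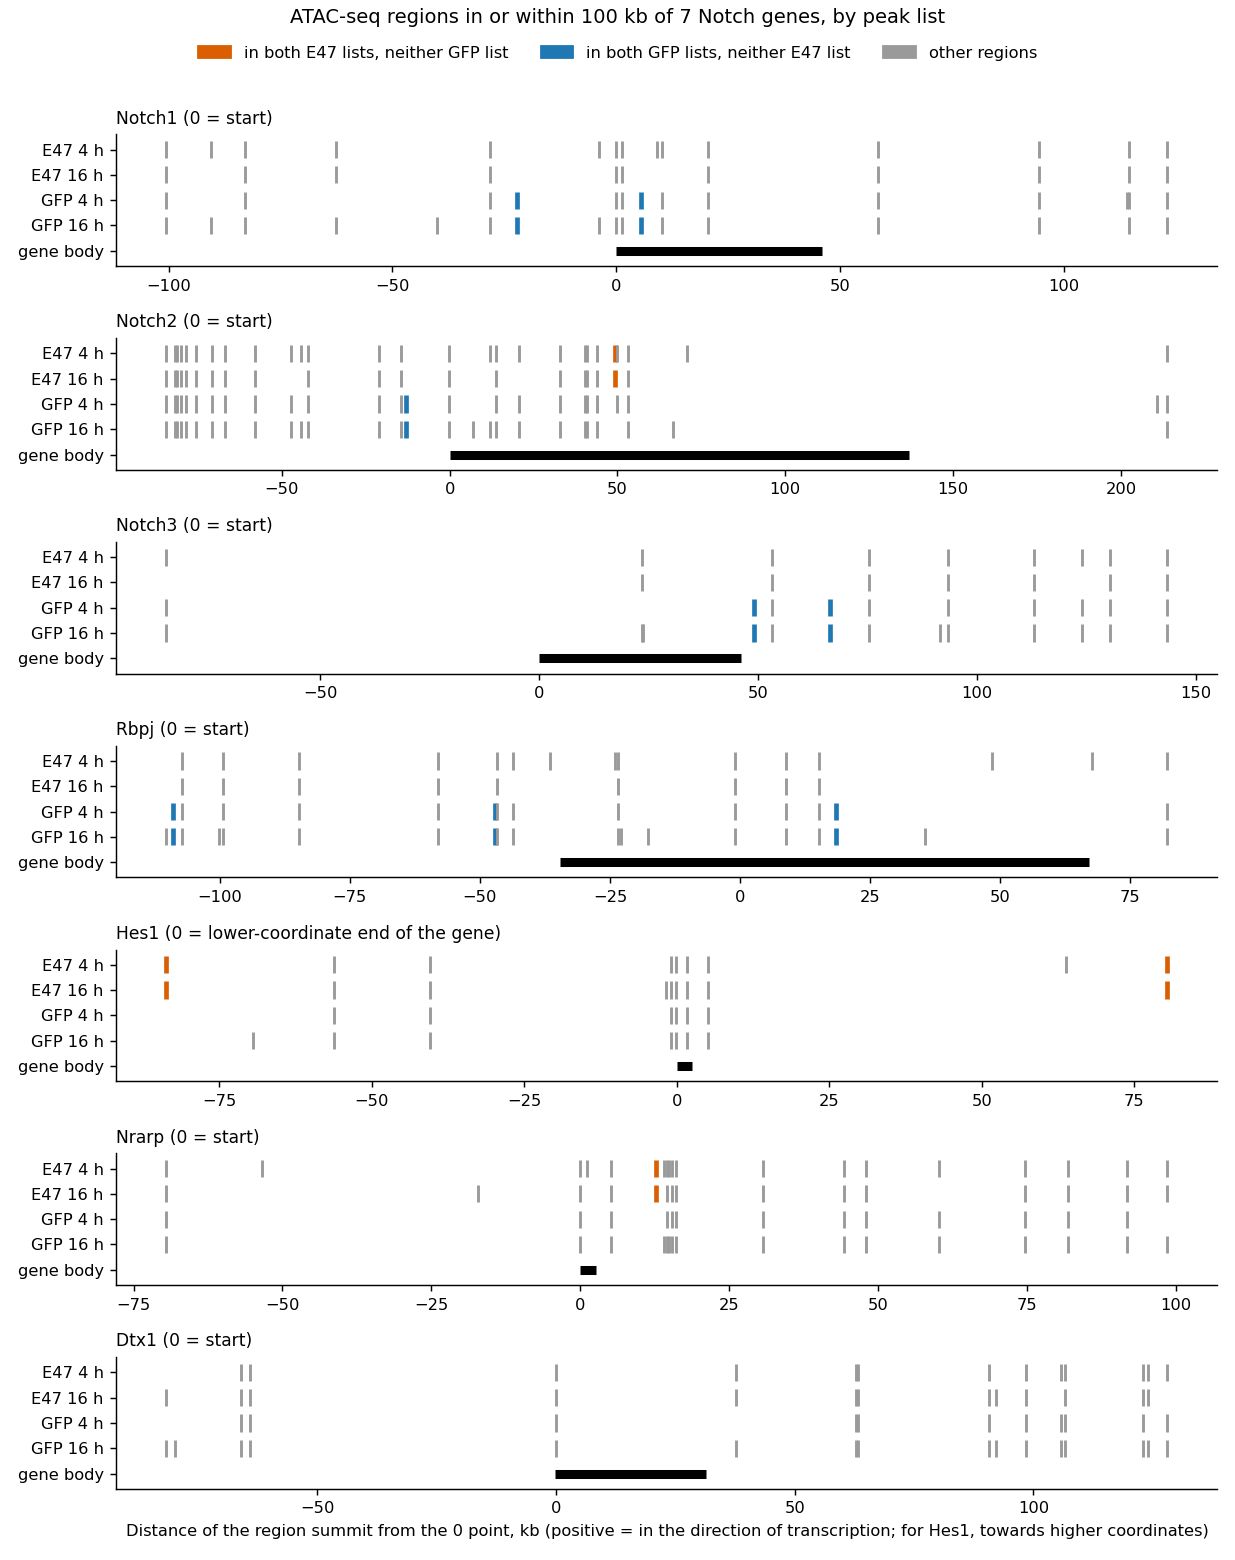
Each row is 1 peak list and each bar is a region of that list, placed by its distance in kb from the gene start (for Hes1, from the end of the gene with the lower coordinate); the black line is the gene body. Orange marks the 4 regions called in both E47 lists and neither GFP list, blue the 8 called in both GFP lists and neither E47 list; the Hes1 row holds 2 orange bars and no blue one, the Notch3 and Rbpj rows only blue ones.

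In all 4 lists together, 71 of the 133 regions were called, or 53.4%, against 48.8% of all regions of the series. These shared regions had a median width of 692 bp, against 678 bp for all regions in all 4 lists, and their median fold was 9.39, against 11.5. Fold here is the enrichment over background that the authors' peak caller gave, taken at the highest summit of a region. A single list held 25 regions, 18.8% against a background of 22.3%, and 12 of these were in GFP 16 h. The vector set apart 12 regions at both times. Of these, 4 were in both E47 lists and neither GFP list, 3.01% against a background of 3.43%, and 8 were in both GFP lists and neither E47 list, 6.02% against 4.56%. Both shares lie near those of the whole series. A pairing that crosses vector and time, E47 4 h and GFP 16 h only, held 6 regions, 4.51% against 4.57%. Whether the vector accounts for any of these calls was not tested.

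**Figure D2:**
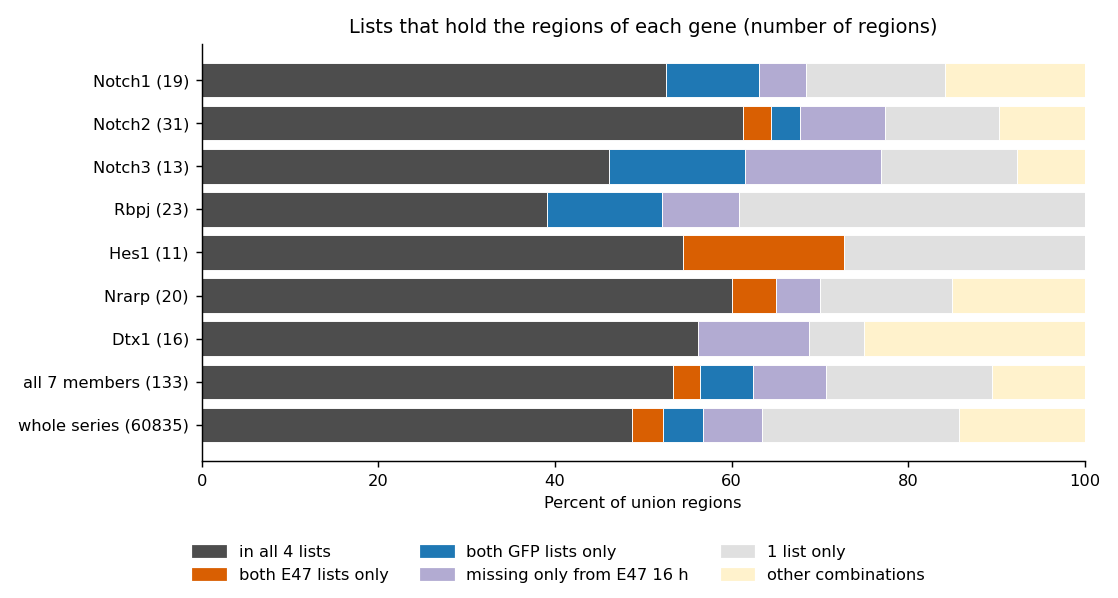
Bars give the percentage of union regions by the lists that hold them, for each member, for all 7 members (133 regions) and for the whole series (60835 regions). Regions in all 4 lists make up 53.4% for the members and 48.8% for the series. The slices of both E47 lists only and both GFP lists only are 3.01% and 6.02% for the members, against 3.43% and 4.56%.

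Open chromatin at the gene starts was called in all 4 lists for 5 of the 6 members with a start in the gene table, 83.3%, against 53.0% of 17491 protein-coding genes. The exception was Notch3, with no region within 1 kb of its start in any list, as for 42.3% of genes. Notch1, the receptor of T lineage commitment, had its start region at chr2:26502817-26504179, with folds of 13.9 in E47 4 h and 13.6 in E47 16 h, against 13.2 in GFP 4 h and 12.05 in GFP 16 h. Its strongest summit lay 3 and 7 bp after the start in the E47 lists, and 5 and 0 bp after it in the GFP lists. Notch2, the receptor best known for marginal zone B cells, had folds of 15.7 and 14.6 in E47 4 h and 16 h, against 14.2 and 15.0 in GFP 4 h and 16 h, at chr3:98013104-98014307. The folds of the vectors overlapped at Notch2 and not at Notch1, where both E47 lists were higher by little. Folds of different lists are not on a common scale. As a percentile among regions called in all 4 lists, the Notch1 start stood at 61.6 in E47 4 h, against 63.5 in GFP 4 h. At 16 h it stood at 65.4 in E47, against 48.5 in GFP. By rank, E47 was thus lower at 4 h and higher at 16 h.

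Rbpj, which binds DNA with or without the Notch intracellular domain, had the widest region of all 133, 2077 bp at chr5:53588914-53590990. It covered both starts, but its strongest summit lay upstream of the first start, at −984 and −985 bp in E47 4 h and 16 h, and at −982 and −985 bp in GFP 4 h and 16 h. Its folds were 13.5 and 15.2 in E47 4 h and 16 h, against 13.3 and 14.0 in GFP 4 h and 16 h. Both starts and this region lie inside the Rbpj gene body, which begins farther upstream at chr5:53555779. The region nearest to that end was called in E47 4 h only, with its summit 1971 bp outside the gene body. Nrarp, a feedback inhibitor that acts on the Notch intracellular domain, had folds of 14.1 and 12.9 in E47 4 h and 16 h, against 13.4 and 14.8 in GFP 4 h and 16 h, at chr2:25180529-25181755. Dtx1, the ubiquitin ligase Deltex1, had folds of 10.5 and 9.39 in E47 4 h and 16 h, against 9.37 and 9.60 in GFP 4 h and 16 h, at chr5:120711305-120711833. Among the members with a start region, Dtx1 was thus the nearest to the list medians, which ranged from 8.71 to 9.0.

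Hes1, a repressor that is the classic Notch target, had 3 regions within 1 kb of the ends of its short gene body, all in all 4 lists. Its strand was not used, so the ends are given by coordinate. The region at the lower end, chr16:30065073-30065435, had folds of 6.38 and 5.19 in E47 4 h and 16 h, against 7.96 and 8.05 in GFP 4 h and 16 h. The region farther out on the same side, chr16:30063980-30064505, had folds of 7.54 and 5.52 in E47 4 h and 16 h, against 6.03 and 7.06 in GFP 4 h and 16 h. The region inside the gene, chr16:30066534-30067248, had folds of 4.42 and 5.74 in E47 4 h and 16 h, against 4.06 and 3.92 in GFP 4 h and 16 h. By fold, the lower-end region was thus lower in both E47 lists, the region inside the gene was higher in both, and all 3 lay below the list medians. As percentile ranks among regions called in all 4 lists, the region inside the gene hardly differed at 4 h. Its rank in E47 was 0.14 points above GFP at 4 h and 8.51 points above it at 16 h.

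**Figure D3:**
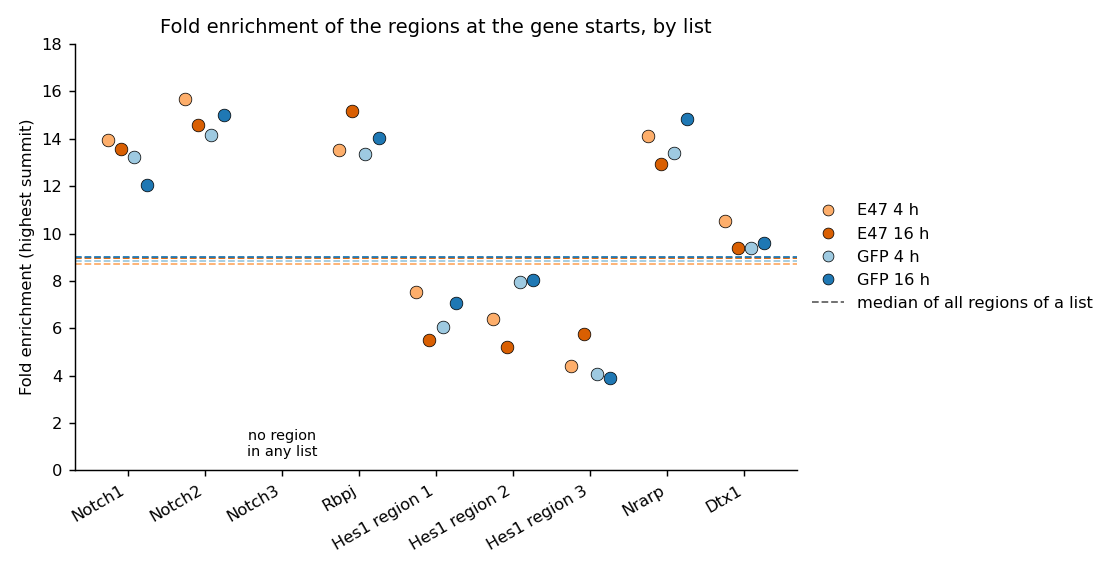
Points give the fold enrichment of the region at each gene start in the 4 lists (E47 in orange, GFP in blue, 4 h pale and 16 h dark), and dashed lines the median of all regions of each list, 8.71 to 9.0. Notch1, Notch2, Rbpj and Nrarp lie between 12.05 and 15.7, the 3 Hes1 regions lie lower, and Notch3 has no region in any list.

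The Notch3 gene body itself held 2 regions. One, at chr17:32143233-32143486 and 23569 bp into the gene, had folds of 9.16 and 7.65 in E47 4 h and 16 h and 10.3 in GFP 16 h, and was not called in GFP 4 h. The other was in GFP 16 h alone, with a fold of 5.34. On the upstream side the nearest region lay at −85124 bp from the start. The highest single fold of the Notch3 window was at chr17:32091008-32092269, with folds of 17.8 and 12.9 in E47 4 h and 16 h, against 16.2 and 14.6 in GFP 4 h and 16 h. Another region, chr17:32035931-32037035, was higher in the other 3 lists, with folds of 16.9 and 15.5 in E47 4 h and 16 h, against 17.0 and 16.1 in GFP 4 h and 16 h. The nearest gene of both was Rrp1b.

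Regions that followed the vector at both times lay away from the starts, and at the receptors most of them were GFP-only. Notch1 had 2, at chr2:26498180-26498438, 5470 bp into the gene, with folds of 3.76 in GFP 4 h and 4.18 in GFP 16 h, and at chr2:26525822-26526064, 22105 bp before the start, with folds of 8.10 and 8.93. The nearest region of the E47 lists was 3406 and 3907 bp from the first, and 5749 and 5759 bp from the second, at 4 h and 16 h. Notch3 had 2 beyond the end of its gene. At chr17:32117747-32117996, 2978 bp past the end, the folds were 5.38 in GFP 4 h and 3.97 in GFP 16 h. At chr17:32099871-32100613, 20386 bp past the end, they were 5.81 and 6.68. Regions in both E47 lists and neither GFP list were found at neither Notch1 nor Notch3.

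Notch2 had 1 region of each kind. The E47-only region, chr3:98062436-98062844, lay 49251 bp into the gene, with folds of 6.40 in E47 4 h and 4.88 in E47 16 h. A GFP 4 h region lay 452 bp from it, while the nearest GFP 16 h region was 3554 bp away. The GFP-only region, chr3:98000431-98000654, lay 13002 bp before the start, with folds of 6.23 in GFP 4 h and 6.50 in GFP 16 h.

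Rbpj had 3 GFP-only regions and no E47-only one. The strongest, chr5:53608578-53609295, lay 18512 bp past the second start inside the gene, with folds of 10.5 in GFP 4 h and 6.59 in GFP 16 h, and was 2620 and 2804 bp from the nearest region of the E47 lists. The second, chr5:53481112-53481364, lay at −109074 bp from the first start and 74507 bp from the gene body, with folds of 3.71 and 5.89. The third, chr5:53543132-53543403, lay at −47141 bp from it, with folds of 4.03 and 3.79, and was 109 and 113 bp from a region of the E47 lists. When regions up to 200 bp apart were merged, the third joined a region called in all 4 lists.

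Hes1 showed the other pattern, with 2 E47-only regions and no GFP-only one. At chr16:29981559-29981985, 83679 bp below the gene, the folds were 8.26 in E47 4 h and 9.22 in E47 16 h. At chr16:30145436-30146271, 78009 bp above the gene, they were 7.36 and 10.1. No GFP region lay close to either: the nearest were 26413 and 13591 bp from the first, and 21478 and 21462 bp from the second, at 4 h and 16 h. Nrarp had 1 E47-only region, chr2:25193397-25193621, with folds of 3.45 in E47 4 h and 2.59 in E47 16 h, which lay inside the neighbouring gene Tor4a. Dtx1 had no region of either kind.

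These 12 regions were weak calls. By −log10 p, none stood above the median of its own list at both times. The GFP-only regions had a median width of 256 bp, against 335 bp for all GFP-only regions of the series, and the E47-only regions 418 bp, against 356 bp. When each list was cut to its strongest 40649 regions, all 4 E47-only regions were retained, and 4 of the 8 GFP-only ones: both at Notch1, that at Notch2 and that inside Rbpj. The Notch3 pair and the other 2 of Rbpj were then in 1 GFP list only, and 2 further regions, 1 in the Dtx1 window and 1 past the end of Rbpj, became GFP-only. By gene, 3 of 7 members had an E47-only region within 100 kb, against 25.4% of protein-coding genes, and 4 of 7 had a GFP-only one, against 29.9%. Every member window held more regions than the median gene's, so these gene counts are not like for like with the background.

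**Figure D4:**
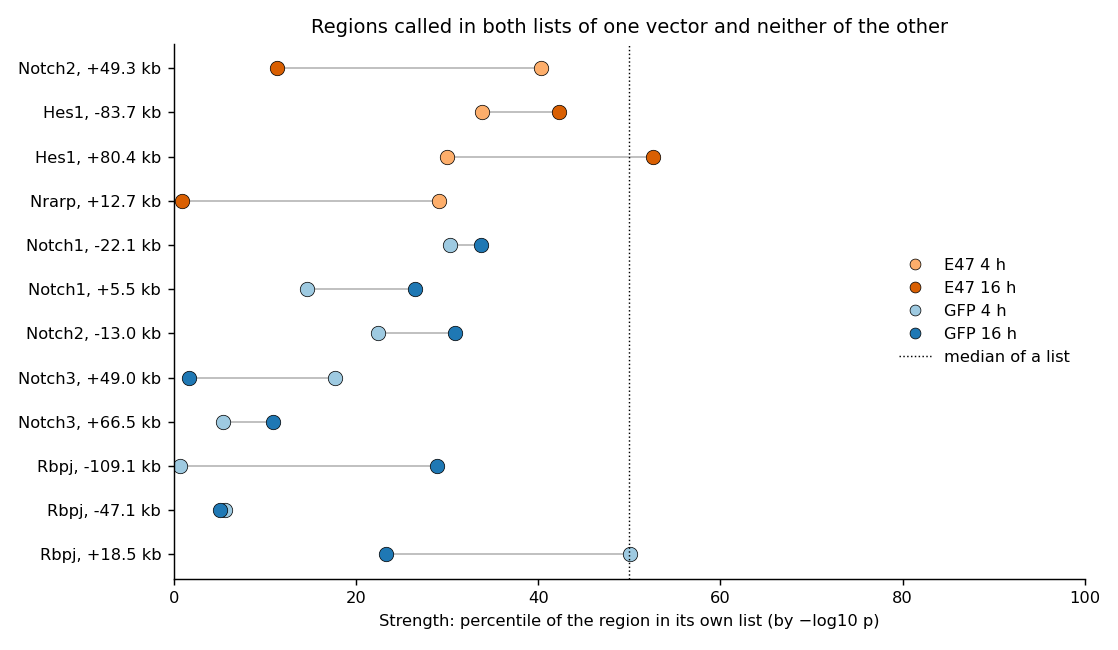
Each row is a region in both lists of 1 vector and neither of the other, named by gene and by distance from the start (for Hes1, from its lower end); points give its percentile of −log10 p within its own list. The 4 E47-only regions are at the top and the 8 GFP-only regions below, and no row has both points to the right of the dotted median line.

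E47-only calls outnumbered GFP-only calls at 4 h and the reverse held at 16 h, as in the whole series. Whether the times differ was not tested. At 4 h alone, 24 member regions were in the E47 list and not in the GFP list, where the background was 19.5% of all regions, and 10 were in the GFP list and not in the E47 list, 7.52% against 8.37%. At 16 h, 6 were in E47 only, 4.51% against 7.48%, and 37 in GFP only, 27.8% against 26.4%. Rbpj had the most GFP-only regions at 16 h, 10 of its 23, with none in E47 only. For Notch1 and for Notch3 the 16 h count was 6 in GFP only and 0 in E47 only. Hes1 had 3 E47-only regions at 4 h and 3 at 16 h, against 0 and 1 GFP-only regions. The weakest of the 3 at 16 h, chr16:30063435-30063874, had a fold of 2.45 and stood at percentile 0.494 of its list by −log10 p. It lay 137, 105 and 162 bp from regions of E47 4 h, GFP 4 h and GFP 16 h. Nrarp had 6 E47-only and 0 GFP-only regions at 4 h, and 2 and 3 at 16 h. The list with more regions of the whole series was E47 at 4 h and GFP at 16 h, and the members' shares run the same way. With each list cut to its strongest 40649 regions, 113 member regions were left. At 4 h the E47 list alone held 14 of them and the GFP list alone 11, against backgrounds of 12.2% and 12.1%, and at 16 h the E47 list alone held 11 and the GFP list alone 20, against 14.5% and 15.1%.

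A further 11 regions were missing from E47 16 h alone, 8.27% against a background of 6.67%. They comprised 3 at Notch2, 2 each at Notch3, Dtx1 and Rbpj, and 1 each at Notch1 and Nrarp. The Notch1 region, chr2:26493313-26493766 inside the gene, had folds of 4.81 in E47 4 h, against 3.74 in GFP 4 h and 5.14 in GFP 16 h. A Notch2 region inside the gene, chr3:98033956-98034282, had folds of 6.71 in E47 4 h, against 6.23 in GFP 4 h and 8.43 in GFP 16 h. Past the end of Rbpj, chr5:53672423-53672640 had folds of 6.47 in E47 4 h, against 6.93 in GFP 4 h and 11.7 in GFP 16 h. Hes1 had none of this kind. By contrast 5 regions were missing from GFP 4 h alone (background 4.29%), and 0 from E47 4 h alone (background 1.24%) or GFP 16 h alone (background 1.44%). The remaining regions were in pairs of lists: 6 in E47 4 h and GFP 16 h, the 2 longest lists (background 4.57%), 0 in E47 16 h and GFP 4 h (background 0.334%), 1 in the 2 lists of 4 h (background 1.28%) and 2 in the 2 lists of 16 h (background 1.08%).

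Among regions called in all 4 lists, folds were compared as percentile ranks within each list over the 29667 such regions of the series. The median difference in rank, E47 minus GFP, over the 71 member regions was −0.55 points at 4 h and −0.86 points at 16 h, against −0.20 and 0.73 points over all. A region ranked over 10 points higher in E47 at both times in 4 of 71 cases, 5.63% against a background of 5.55%, and over 10 points lower in 5 of 71, 7.04% against 6.50%. The higher ones lay inside Rbpj, Notch1 and Notch2 and, for the Dtx1 window, inside its neighbour Iqcd. The Rbpj region, chr5:53605537-53605957, had folds of 11.5 and 8.66 in E47 4 h and 16 h, against 6.79 and 7.95 in GFP 4 h and 16 h. The Notch1 region, chr2:26483064-26483924, had folds of 12.8 and 9.57 in the E47 lists, against 8.50 and 9.57 in the GFP lists. The Notch2 region, chr3:98046255-98046796, had folds of 13.7 and 10.4 in E47 4 h and 16 h, against 9.42 and 10.3 in GFP 4 h and 16 h. In all 3 genes the difference in fold was larger at 4 h than at 16 h. At 16 h the Notch1 and Notch2 regions ranked 10.3 and 10.7 points higher in E47, although their folds were equal after rounding or nearly equal.

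The 5 lower-ranked regions were in the windows of the receptors and Hes1. They were the region at the lower end of Hes1 described above, 2 upstream of Notch1, 1 upstream of Notch2 and 1 past the end of Notch3. The farther of the 2 Notch1 regions, chr2:26603639-26604732, had its strongest summit 100502 bp before the start, inside the neighbouring gene Agpat2. The Notch1 region nearer to the start, chr2:26531814-26532146 and 28191 bp before it, had folds of 8.65 and 10.5 in E47 4 h and 16 h, against 10.5 and 13.5 in GFP 4 h and 16 h. The Notch2 region, chr3:97998325-97999292 and 14443 bp before the start, had folds of 10.8 and 8.95 in the E47 lists, against 11.9 and 12.4 in the GFP lists. The Notch3 region, chr17:32113550-32114418 and 7062 bp past the gene end, had folds of 5.97 and 5.05 in the E47 lists, against 7.0 and 8.42 in the GFP lists. Each of these 3 lay next to a GFP-only region of the same receptor, and was the E47 region nearest to it. That pairing was seen after the values were known and was not tested.

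**Figure D5:**
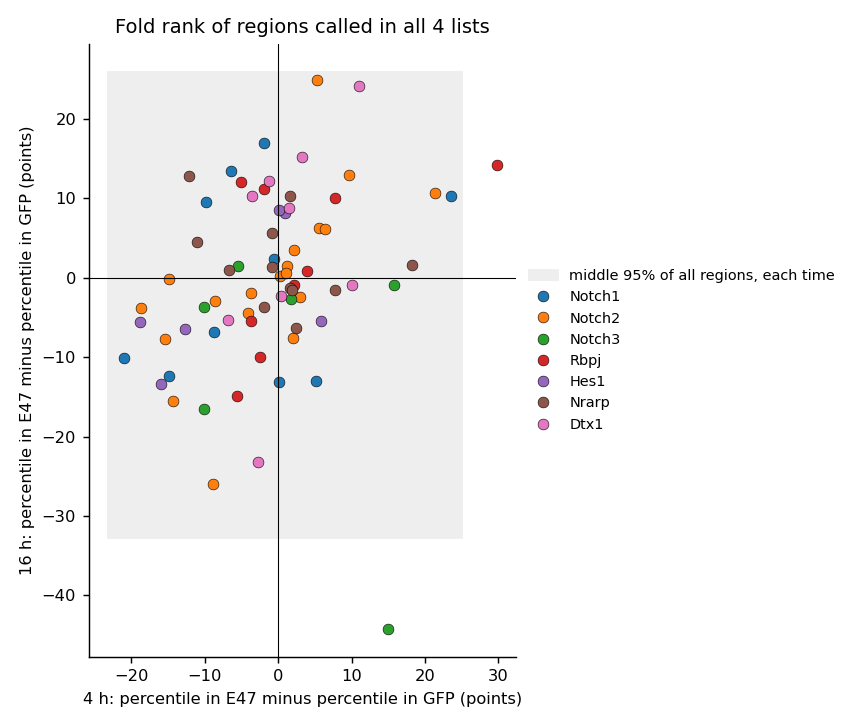
Each point is a member region called in all 4 lists, coloured by gene; the axes give its fold rank in E47 minus that in GFP, in percentile points, at 4 h (horizontal) and 16 h (vertical), and the shaded box spans the middle 95% of all 29667 such regions at each time. The 71 points centre near 0 on both axes, with medians of −0.55 and −0.86.

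The region with the highest single fold of any list was called in all 4 lists in every window. At Hes1, chr16:30024519-30025324, 40525 bp from the gene with no other protein-coding gene in the window, had folds of 17.8 and 17.8 in E47 4 h and 16 h, against 16.4 and 16.6 in GFP 4 h and 16 h. At Rbpj, chr5:53490483-53491420, 64744 bp from the gene body, had folds of 19.4 and 18.1 in E47 4 h and 16 h, against 17.3 and 18.5 in GFP 4 h and 16 h. Both distal regions had higher folds than any region at the start of their gene. In the Notch1, Notch2, Nrarp and Dtx1 windows the region with the highest single fold was nearest to a neighbour, namely Inpp5e, Gm5544, Anapc2 and Iqcd. The Inpp5e region, chr2:26408586-26409404, was highest by its GFP 16 h value alone, with folds of 17.7 and 18.6 in E47 4 h and 16 h, against 18.9 and 21.4 in GFP 4 h and 16 h. A region nearest to Entr1, chr2:26388629-26389640, was higher in the other 3 lists, with folds of 19.6 and 20.1 in E47 4 h and 16 h, against 20.8 and 17.1 in GFP 4 h and 16 h. The Iqcd region, chr5:120588059-120589282, had folds of 19.6 and 18.7 in E47 4 h and 16 h, against 15.8 and 14.3 in GFP 4 h and 16 h.

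The rest of the pathway was read from a list of 66 other Notch genes, all of which were found in the gene table. Their windows held 1105 regions, of which 27 were E47-only at both times, 2.44%, and 43 GFP-only, 3.89%, against the backgrounds of 3.43% and 4.56% given above. The E47-only regions lay at 21 genes and the GFP-only regions at 36. Ligand genes had 3 E47-only and 7 GFP-only regions of 98, with GFP-only ones at Dll1, Dll3, Dll4, Jag1 and Jag2. A Dll4 region, chr2:119379492-119380056, had folds of 7.31 in GFP 4 h and 10.8 in GFP 16 h. Genes for cleavage of the receptor had 2 and 3 of 155, genes for its glycosylation 3 and 3 of 87, and coactivators 4 and 4 of 135. Maml3, a Mastermind coactivator, had 2 of each kind inside its gene. The stronger of each were as follows: chr3:51881959-51882535 had folds of 10.4 in E47 4 h and 8.87 in E47 16 h, and chr3:52082495-52083106 had folds of 8.81 in GFP 4 h and 10.95 in GFP 16 h. Corepressors had 4 E47-only and 6 GFP-only regions of 154, genes for receptor turnover 2 and 8 of 168, and further target genes 8 and 12 of 296.

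Tcf7, the target gene that encodes TCF-1, had 2 regions of the E47-only and 1 of the GFP-only kind within its window, and a start region called in E47 16 h only. The stronger E47-only region, chr11:52318400-52318828 and 35307 bp from the gene, had folds of 9.59 in E47 4 h and 8.89 in E47 16 h. Poglut1, a glucosyltransferase of Notch receptors, had 2 E47-only regions, the stronger at chr16:38503241-38503900, with folds of 10.5 in E47 4 h and 10.2 in E47 16 h. Starts were open in all 4 lists for 52 of the 66 genes and had no region in any list for 7, which were Notch4, Dll3, Dlk1, Hes7, Heyl, Ptcra and Cd3e. Over 17491 protein-coding genes with a start in the gene table, the shares were 53.0% and 42.3%. Some of the 66 genes had no start in that table and were scored at both ends of the gene body. The counts are therefore not like for like with these shares. By role, starts in all 4 lists were found for 9 of 9 genes of receptor cleavage, 5 of 5 of glycosylation, 9 of 9 corepressors and 10 of 10 genes of turnover, but for 2 of 7 ligand genes. Of the 4 receptors, Notch3 and Notch4 thus had no region at the start, while Notch1 and Notch2 had one in every list.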

How the data were processed

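ATAC-seq was made from 8 samples in 4 groups of 2. The submitters' processing notes list mm10, MACS2, Bowtie2, cutadapt and DiffBind; versions and settings were not given in the sources used here. The authors deposited 1 conservative peak list per group, pooled over its samples, with a score, a fold enrichment (a linear ratio over background), −log10 p-values and q-values, and a summit offset for each peak. Read depth was not given, so the number of calls is what limits precision. Overlapping peaks (by at least 1 bp) of the 4 lists were merged into regions; a region counted as called in a list that had a peak in it. Gene positions and promoter windows came from RefSeq (GRCm38.p6, the mm10 assembly). The named regions were those called with 1 vector only at both times, those at gene starts, the region with the highest single fold in each window and those ranked over 10 points apart at both times. The members and gene lists were chosen with earlier results of these data known. Alternatives required regions to overlap by 50% of the shorter one, or used an equal list length, calls above the median, single summits, other windows, the nearest gene and a merging gap. Some marker results are not reported here. The merging of peaks and the assignment of regions to lists were run on simulated sites that lay far apart. That run did not cover narrow calls lying close together, or the counts per gene. Python 3.11.15, pandas 2.3.3, numpy 2.4.6 and matplotlib 3.10.9 were used.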

Additional observations from a re-analysis of the deposited data

Results flagged for a closer look

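For 5 members and for all 7 together, the E47-only regions outnumbered the GFP-only regions at 4 h, and the GFP-only regions outnumbered the E47-only ones at 16 h. Whether the times differ was not tested. The surplus of E47-only over GFP-only regions was 1 at 4 h and −6 at 16 h for Notch1, 2 and −7 for Notch2, 2 and −3 for Dtx1, 1 and −10 for Rbpj, and 6 and −1 for Nrarp. Over all 7 members it was 14 and −31, and with lists of equal length 3 and −9. As a share of regions this was 10.5% and −23.3% for the members, against 11.1% and −18.9% for the whole series, where the list lengths run the same way. With lists of equal length it was 2.65% and −7.96% for the members, against 0.157% and −0.639%. Hes1 kept 1 direction, with 3 at 4 h and 2 at 16 h, as did Notch3, with −1 and −6. The Hes1 value at 16 h counts the weak region with a fold of 2.45 described above.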

How the results depend on the processing

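With each list cut to its strongest 40649 regions, 113 member regions were left. E47-only regions came to 14 at 4 h and 11 at 16 h (12.2% and 14.5% of all regions), and GFP-only regions to 11 and 20 (12.1% and 15.1%). With calls above the list median alone, 69 were left. E47-only regions were 10 at 4 h, 2 at 16 h and 1 at both times (16.5%, 4.20% and 3.09% of all), and GFP-only regions 3, 18 and 1 (4.82%, 24.3% and 3.97%). None of the 12 regions called with 1 vector only in the main count was among those at both times. With single summits matched within 150 bp in place of regions, E47-only summits were 60 of 297 at 4 h, 30 of 259 at 16 h and 14 of 297 at both times (24.3%, 13.1% and 4.65% of all summits of the list). GFP-only summits were 33 of 270, 84 of 308 and 13 of 270 (12.1%, 28.4% and 5.61%). Within 50 kb, with 81 regions, E47-only regions at both times were 2 (3.43% of all). Within 5 kb, with 45 regions, they were 11 at 4 h, 2 at 16 h and 1 at both times, against 3, 13 and 3 for GFP. The shares of all regions were 19.5%, 7.48% and 3.43% for E47, and 8.37%, 26.4% and 4.56% for GFP. With nearest genes alone, with 70 regions, E47-only regions at 4 h were 14 and GFP-only regions at 16 h 23 (19.5% and 26.4% of all). These counts come from fewer regions than the 133 of the main count. The cause was not tested beyond the shorter lists and windows themselves. The other 24 counts stayed within 1.5 times of those reported, among them those with regions merged across a gap of 200 bp. Of the single-gene differences at both times, E47-only minus GFP-only, 25 moved and 31 did not. None went to the opposite sign, but several ended at 0: Hes1, from 2, within 50 kb and within 5 kb; Notch3, from −2, with lists of equal length and above the median; Notch1, from −2, above the median; and Nrarp, from 1, above the median, within 5 kb and with nearest genes alone. From 0, Notch2 came to 3 with single summits and 1 within 5 kb, and Dtx1 to −1 with lists of equal length and with single summits. No paired analysis was possible because each group had 1 pooled list and no values per sample, and for the same reason no replicate could be left out. Weak regions near the calling threshold limit every count of calls.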
